A study of Danio rerio with 11 samples.

Results

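The genes described here break down amino acids and dispose of their nitrogen. They were taken from a list of 60 zebrafish gene names, grouped by the amino acid they act on, and matched to the Ensembl gene IDs of the count data by name in any case or, where that failed, by the name without its final a or b. This found 59 of the 60 names, 48 by name and 11 without the final letter, and gave 62 of the 32105 gene IDs counted. The serine dehydratase gene sds was not matched and was not analysed here. For 5 of the names there were several IDs, 11 in all, which are given with their Ensembl ID because the a and b copies could not be told apart.

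RNA-seq was performed on livers dissected from zebrafish larvae at 5 dpf (120 hpf), with 5 pools of hUHRF1 livers and 6 pools of livers of WT siblings. The hUHRF1 larvae, named Tg(fabp10a:hUHRF1-EGFP)high, carried human UHRF1, an epigenetic regulator needed to maintain DNA methylation, fused to EGFP and driven in hepatocytes by the fabp10a promoter. Each pool came from 1 clutch and held 30 hUHRF1 livers (27 in clutch 6) or 20 WT livers, with both conditions from clutches 4, 6, 7, 8 and 9 and only a WT pool from clutch 5. All hUHRF1 pools carry the word high in their label, which is not explained, and the level of the transgene was not checked here. The comparison asked which of these genes differed between hUHRF1 and WT livers.

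The liver is the main site where surplus amino acids are degraded, and hepatocytes hold many of these enzymes at high levels. An aminotransferase or another first enzyme takes off the amino group, the carbon skeleton is then broken down step by step into intermediates of the citric acid cycle or ketone bodies, and the nitrogen collects on glutamate. Mammals turn this nitrogen into urea in the liver, whereas fish release most of it as ammonia through the gills.

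Libraries held between 9064943 and 19370497 counts in hUHRF1 and between 15285359 and 23322479 in WT. Expression is given as CPM, the counts of a gene relative to the library size scaled by TMM factors, as the mean ± SD over pools. L2FC is the log2 fold change of hUHRF1 against WT, given with its standard error (SE). Adjusted p-values are from edgeR's quasi-likelihood test with Benjamini-Hochberg adjustment over all 15838 genes tested, and a gene was called lower or higher with an adjusted p-value under 0.05. The TMM factors did not overlap between conditions (1.12 to 1.71 in hUHRF1, 0.672 to 0.978 in WT). Scaling by library size alone moved the median L2FC of all tested genes from 0.05 to 0.83 and the share of calls that were higher from 49.8% to 93.1%, so directions below are relative to the bulk of the genes. Of 16 hepatocyte markers 14 were lower, with a median L2FC of -1.65 and summed CPM of 31433 to 88961 in hUHRF1 against 102200 to 190320 in WT. Among them was fabp10a, whose promoter drives the transgene (L2FC -1.36 ± 0.34, adjusted p = 0.0093). All 10 exocrine pancreas markers were higher (median L2FC 1.85, summed CPM 1441 to 12432 against 738 to 3009) and none was at 0. Of 7 tested macrophage markers 5 were higher (summed CPM 29.7 to 49.3 against 11.1 to 28.8). Of 5 tested biliary markers 2 were higher and none was lower, and the median difference of their log2 CPM from the WT mean was 0.64 to 0.89 in the hUHRF1 pools and -0.19 to 0.16 in the WT pools, without overlap, whereas their summed CPM overlapped (597 to 1109 against 485 to 948). Pigment cell markers summed to 148 to 234 CPM in hUHRF1 and 724 to 1098 in WT, with 1 of 5 tested lower and 2 higher. The lower one, xdh, made up most of these sums (184 ± 32.3 CPM in hUHRF1 and 913 ± 140 CPM in WT). The median L2FC of the 5 tested markers was 0.56. Of 10 tested intestine markers 2 were lower and 2 higher. Their median L2FC was 1.01, with 3 negative, whereas their summed CPM was 760 to 2393 in hUHRF1 and 2010 to 4834 in WT. Of 5 erythrocyte markers 1 was lower and none higher. Of 5 endothelium markers 2 were higher and of 7 muscle markers 1, with none lower in either list. The median L2FC of the muscle markers was 0.91 and none was negative. These counts stand beside 14.6% called lower and 14.5% called higher over all tested genes. Fewer hepatocytes in a pool and less RNA per hepatocyte cannot be told apart in these bulk livers, and the part of either, or of the other cell types, in the results below was not tested.

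Most genes of amino acid breakdown were lower in hUHRF1 livers, with at least 1 lower gene in each of the 10 amino acid groups. Of the 62 IDs, 56 passed the filter on low counts and were tested, and 39 of these were called lower and 3 higher, while 14 were not called. Over all tested genes 14.6% were called lower and 14.5% higher (29.1% in either direction). The median L2FC of the tested members was -1.03, against 0.05 over all tested genes, and 14 of them were lower with an L2FC beyond -1.5, which held for 3.55% of all genes. Only asl was higher with an L2FC beyond 1.5, against 5.28% of all genes. Every hUHRF1 pool lay below every WT pool in 30 of the 56 members, against 9.02% of all genes. Among the largest decreases were those of tat, tdo2a and tdo2b, the first enzymes of tyrosine and tryptophan degradation. The 3 members that rose were asl, a urea cycle enzyme, csad, which makes the precursor of taurine, and afmid, of tryptophan degradation. The summed CPM of all members ranged from 7086 to 15101 in hUHRF1 and from 23420 to 45405 in WT, without overlap. With library size alone, 20 members were called lower (3.85% of all genes) and 8 higher (52.1%), and the median L2FC of the members was -0.26, which relative to that of all genes was -1.10, against -1.08 with TMM. Under both scalings 51 of the 56 members lay below the median of all genes. A change of scaling moves all genes by a similar amount, so these relative values could hardly differ and are no separate support.

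**Figure D1:**
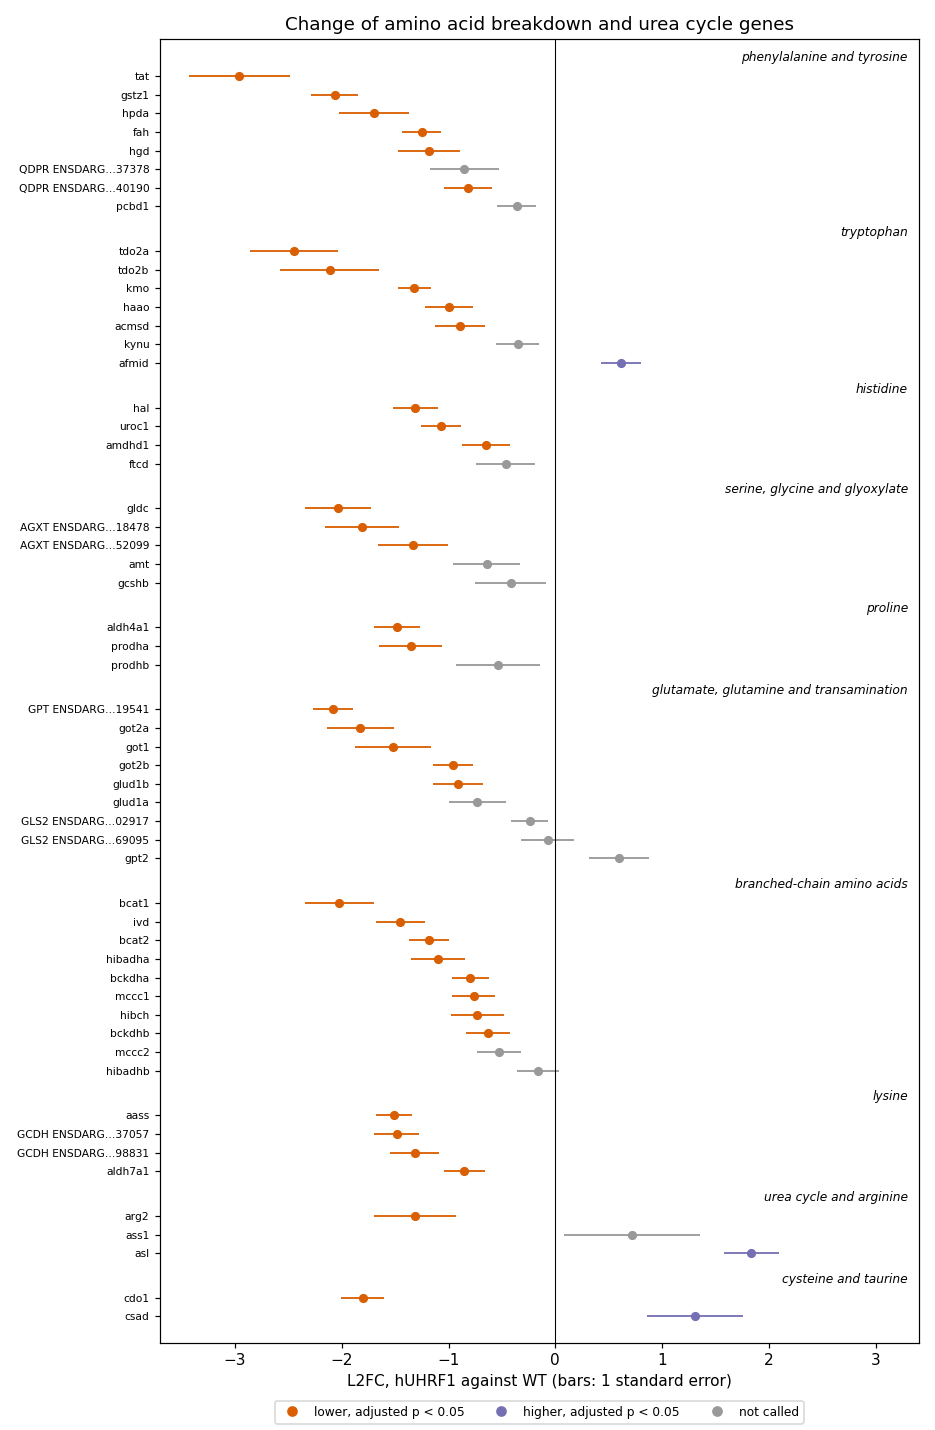
L2FC of hUHRF1 against WT (x axis, log2 units; bars are 1 SE) for 55 tested genes, grouped by amino acid, with genes called lower in orange, genes called higher in purple and the others in grey. All but 5 points lie left of 0, from tat at -2.96 to asl at 1.84.

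Of the 9 tested genes of phenylalanine and tyrosine breakdown 7 were lower and none was higher. Tyrosine aminotransferase, tat, which takes the amino group off tyrosine, stood at 673, 86.1, 827, 409 and 400.4 CPM in the hUHRF1 pools of clutches 4, 6, 7, 8 and 9 and between 2409.8 and 5162 with a median of 3687 CPM in the WT pools, the largest decrease of all members (7.77-fold, L2FC -2.96 ± 0.47, adjusted p = 0.00050). The conditions did not overlap, and the hUHRF1 pool of clutch 6 was the lowest. The steps that follow were lower too. For hpda, which converts 4-hydroxyphenylpyruvate to homogentisate, the pools ranged from 76.3 to 198 CPM in hUHRF1 against 252 to 829.9 CPM in WT (L2FC -1.70 ± 0.33, adjusted p = 0.0019), and for hgd, which opens the ring of homogentisate, from 98.2 to 328 CPM in hUHRF1 against 314 to 587 CPM in WT (L2FC -1.18 ± 0.29, adjusted p = 0.0074). The hgd ranges overlapped by 1 hUHRF1 pool, that of clutch 4.

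The smallest adjusted p-value of this pathway was that of gstz1, the isomerase that acts on the opened ring. Its level in the hUHRF1 pools, in the same order, was 28.9, 15.03, 18.9, 30.2 and 18.9 CPM, and the 6 WT pools lay between 76.1 and 118 with a median of 86.8 CPM. The highest hUHRF1 pool was thus well under the lowest WT pool, and gstz1 was 4.19-fold lower (L2FC -2.07 ± 0.22, adjusted p = 2.8e-05). The last enzyme, fah, which yields fumarate and acetoacetate, fell from 149.6 ± 18.0 CPM in WT to 62.8 ± 14.5 CPM in hUHRF1 (L2FC -1.25 ± 0.18, adjusted p = 0.00026). Tetrahydrobiopterin, a cofactor of amino acid metabolism, is recycled by pcbd1 and by dihydropteridine reductase, QDPR. One QDPR gene, ENSDARG00000040190, was lower (from 673 ± 154 CPM in WT to 381 ± 99.0 CPM in hUHRF1, L2FC -0.82 ± 0.22, adjusted p = 0.015), with pools that overlapped. The other tested copy, ENSDARG00000037378, was at low counts, 10 to 71 in a pool (0.843 to 2.00 CPM in hUHRF1 against 1.82 to 3.12 CPM in WT), and was not called (L2FC -0.85 ± 0.32, adjusted p = 0.061), nor was pcbd1 (103 to 182 CPM in hUHRF1 against 144 to 208 CPM in WT, L2FC -0.36 ± 0.18, adjusted p = 0.15). Both passed with clutch as a block (adjusted p = 0.049 and 0.038). The remaining QDPR ID, ENSDARG00000086859, had 0 counts in all 11 pools and hpdb had at most 50 counts in any pool, so neither was tested.

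Tryptophan breakdown had 5 lower genes, 1 higher and 1 not called among 7. Both genes of tryptophan 2,3-dioxygenase, which opens the indole ring in the first step, fell strongly, tdo2a 5.46-fold (109.6 to 640.2 CPM in hUHRF1 against 1187 to 3225 CPM in WT, L2FC -2.45 ± 0.41, adjusted p = 0.00070) and tdo2b 4.32-fold (49.6 to 449 CPM in hUHRF1 against 738 to 2186 CPM in WT, L2FC -2.11 ± 0.46, adjusted p = 0.0039). The next enzyme, the formamidase afmid, which releases kynurenine, went the other way. Its hUHRF1 pools of clutches 4, 6, 7, 8 and 9 stood at 95.8, 91.4, 116, 133 and 94.5 CPM, and its WT pools between 53.5 and 96.2 with a median of 66.5 CPM. The hUHRF1 pool was the higher one in each of the 5 clutches, although the WT pool of clutch 7 was above 3 of the hUHRF1 pools, and afmid was 1.53-fold higher (L2FC 0.62 ± 0.19, adjusted p = 0.026). With 1 pool left out at a time, 5 of 11 fits no longer called afmid (hUHRF1 pool of clutch 7 or 8, WT pool of clutch 5, 8 or 9), with an adjusted p-value of up to 0.072.

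Kynurenine 3-monooxygenase, kmo, which hydroxylates kynurenine, had the smallest adjusted p-value of the tryptophan pathway. It stood at 90.5, 89.7, 64.9, 83.3 and 77.2 CPM in the 5 hUHRF1 pools, in the order of clutches given above, and the WT pools lay between 184 and 228 with a median of 200.2 CPM. Levels varied little within either condition and the highest hUHRF1 pool was less than the lowest WT pool, with a 2.497-fold decrease (L2FC -1.32 ± 0.15, adjusted p = 5.2e-05). Further down, haao, an oxygenase that opens the ring of 3-hydroxyanthranilate, fell from 336 ± 72.4 CPM in WT to 169 ± 48.7 CPM in hUHRF1 (L2FC -0.99 ± 0.22, adjusted p = 0.0049). The decarboxylase acmsd, which diverts its product away from NAD synthesis, fell from 283 ± 66.3 CPM in WT to 153 ± 44.1 CPM in hUHRF1 (L2FC -0.89 ± 0.23, adjusted p = 0.012). Kynureninase, kynu, which acts between kmo and haao, was not called, at 198 ± 48.4 CPM in WT and 155 ± 24.01 CPM in hUHRF1 (L2FC -0.35 ± 0.20, adjusted p = 0.21), and passed with clutch as a block (adjusted p = 0.018).

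Histidine breakdown had 3 lower genes of 4. Histidine ammonia-lyase, hal, which removes ammonia to form urocanate, was measured at 178, 105, 93.1, 167 and 116 CPM in the hUHRF1 pools and between 251 and 390.1 with a median of 327 CPM in the WT pools. The conditions did not overlap, and hal was 2.48-fold lower (L2FC -1.31 ± 0.21, adjusted p = 0.00054). Urocanate hydratase, uroc1, the following enzyme, fell from 668 ± 86.9 CPM in WT to 318 ± 67.7 CPM in hUHRF1 (L2FC -1.07 ± 0.19, adjusted p = 0.00093), again without overlap. The change of amdhd1, which opens the imidazolone ring, was smaller (71.8 to 134 CPM in hUHRF1 against 95.2 to 199 CPM in WT, L2FC -0.65 ± 0.23, adjusted p = 0.045), turned to an L2FC of 0.11 with library size alone and passed in 3 of the 11 fits that left out 1 pool, with adjusted p-values up to 0.10 in the others. The last enzyme, ftcd, which passes the formimino group to tetrahydrofolate, was not called (158 to 535 CPM in hUHRF1 against 381 to 618 CPM in WT, L2FC -0.47 ± 0.28, adjusted p = 0.22).

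Of the genes of serine, glycine and glyoxylate metabolism, 3 of 5 were lower. Glycine is split by the mitochondrial glycine cleavage system, in which gldc encodes the decarboxylase, amt the aminomethyltransferase and gcshb the lipoyl carrier protein. Only the decarboxylase was called. Its level was 116, 40.6, 82.6, 91.9 and 61.5 CPM in the hUHRF1 pools and between 215 and 471 with a median of 282 CPM in the WT pools. No pool overlapped, and gldc was 4.11-fold lower (L2FC -2.04 ± 0.31, adjusted p = 0.00034). In contrast, amt (77.1 to 202 CPM in hUHRF1 against 144 to 358 CPM in WT, L2FC -0.64 ± 0.31, adjusted p = 0.14) and gcshb (104 to 249 CPM in hUHRF1 against 119 to 435 CPM in WT, L2FC -0.42 ± 0.33, adjusted p = 0.36) overlapped between conditions. Each was lower in hUHRF1 in all 5 clutches and passed with clutch as a block (adjusted p = 0.0086 and 0.041). Whether gldc changed more than its partners was not tested.

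Alanine-glyoxylate aminotransferase, AGXT, removes glyoxylate and is the enzyme deficient in a human form of primary hyperoxaluria. Of this name there are 2 IDs, and both were lower. ENSDARG00000018478 stood at 2244, 1001, 2694, 3578 and 2806 CPM in the hUHRF1 pools and between 4847 and 13236 with a median of 8704 CPM in the WT pools, a 3.51-fold decrease (L2FC -1.81 ± 0.34, adjusted p = 0.0016). ENSDARG00000052099 stood at 391, 176, 508, 554 and 478 CPM in the hUHRF1 pools and between 602 and 1689 with a median of 1028 CPM in the WT pools, a 2.52-fold decrease (L2FC -1.33 ± 0.32, adjusted p = 0.0074). For both IDs the hUHRF1 pool of clutch 6 was the lowest of all 11 pools and no hUHRF1 pool reached the WT range. How the counting treated reads that match near-identical copies is not given in the sources used here, so values of copies with the same name are uncertain.

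Proline is oxidised in mitochondria by proline dehydrogenase and then by aldh4a1, which forms glutamate. Of the 3 genes, 2 were lower. The hUHRF1 pools held 148, 67.8, 128, 135 and 147 CPM of aldh4a1, and the WT pools lay between 286 and 402 with a median of 359 CPM. Every hUHRF1 pool was far below the WT pools, and the pool of clutch 6 stood apart from the other hUHRF1 pools (2.80-fold lower, L2FC -1.48 ± 0.21, adjusted p = 0.00023). Of the dehydrogenase genes, prodha fell (9.13 to 20.0 CPM in hUHRF1 against 18.1 to 61.8 CPM in WT, L2FC -1.35 ± 0.30, adjusted p = 0.0039) while prodhb, at low counts, was not called (1.93 to 7.04 CPM in hUHRF1 against 3.51 to 14.7 CPM in WT, L2FC -0.54 ± 0.40, adjusted p = 0.33).

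Of the 9 tested genes that move amino groups between glutamate and other amino acids, 5 were lower and the other 4 were not called. The clearest was alanine aminotransferase GPT ENSDARG00000019541, whose mammalian counterpart is the cytosolic enzyme measured in blood as a sign of liver damage. It was measured at 249.6, 177, 199.96, 229 and 183 CPM in the hUHRF1 pools and between 708 and 1049 with a median of 879.9 CPM in the WT pools. All hUHRF1 pools lay in a narrow range and none approached the WT pools, with a 4.24-fold decrease and the smallest adjusted p-value of all members (L2FC -2.08 ± 0.18, adjusted p = 7.6e-06). The mitochondrial alanine aminotransferase gpt2 was measured at 6.24, 9.96, 8.18, 5.76 and 7.08 CPM in hUHRF1 and between 1.95 and 7.72 with a median of 4.99 CPM in WT. These ranges overlapped and gpt2 was not called (L2FC 0.60 ± 0.28, adjusted p = 0.13). With library size alone gpt2 was called higher (L2FC 1.39, adjusted p = 0.0046), as were 52.1% of all genes. The second GPT ID, ENSDARG00000055642, had at most 12 counts in any pool and was not tested.

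The aspartate aminotransferases link glutamate to aspartate and take part in the malate-aspartate shuttle. The cytosolic got1 fell from 899 ± 353 CPM in WT to 314 ± 128 CPM in hUHRF1 (L2FC -1.52 ± 0.36, adjusted p = 0.0061), with only the hUHRF1 pool of clutch 8 above the lowest WT pool. Of the mitochondrial genes, got2a held 153, 101, 274, 316 and 239.9 CPM in the hUHRF1 pools and between 447 and 999 with a median of 816 CPM in the WT pools (L2FC -1.83 ± 0.31, adjusted p = 0.00078). For got2b the hUHRF1 pools held 99.7, 98.6, 143, 115 and 98.8 CPM and the WT pools lay between 179.8 and 296 with a median of 209 CPM (L2FC -0.96 ± 0.18, adjusted p = 0.0017). Both were lower without overlap. Glutamate dehydrogenase, which frees ammonia from glutamate, has 2 genes, of which glud1b fell from 3139 ± 535 CPM in WT to 1669 ± 480.3 CPM in hUHRF1 (L2FC -0.91 ± 0.24, adjusted p = 0.011) and glud1a just missed the threshold (591 ± 196 CPM in WT and 356 ± 103 CPM in hUHRF1, L2FC -0.73 ± 0.27, adjusted p = 0.055) and passed with clutch as a block (adjusted p = 0.0018). The liver-type glutaminase genes, both named GLS2, were not called. ENSDARG00000002917 ranged from 58.0 to 105 CPM in hUHRF1 against 90.2 to 112 CPM in WT (L2FC -0.24 ± 0.17, adjusted p = 0.32) and ENSDARG00000069095 from 12.3 to 34.5 CPM in hUHRF1 against 19.6 to 33.1 CPM in WT (L2FC -0.07 ± 0.25, adjusted p = 0.85). With library size alone both were called higher (L2FC 0.53 and 0.73, adjusted p = 0.024 and 0.020), as were 52.1% of all genes.

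Valine, leucine and isoleucine are broken down in mitochondria after transamination, and 8 of 10 genes of this pathway were lower. The branched-chain aminotransferases carry out the first step. The cytosolic bcat1 stood at 51.9, 21.6, 83.6, 84.6 and 74.4 CPM in the hUHRF1 pools and between 169 and 319 with a median of 262 CPM in the WT pools (4.06-fold lower, L2FC -2.02 ± 0.32, adjusted p = 0.00046), and the mitochondrial bcat2 at 21.6, 13.3, 20.9, 22.4 and 29.2 CPM and between 44.8 and 57.1 with a median of 47.4 CPM (2.28-fold lower, L2FC -1.19 ± 0.19, adjusted p = 0.00046). For both genes all hUHRF1 pools lay below all WT pools. The committed step is the branched-chain ketoacid dehydrogenase, whose E1 subunits are bckdha and bckdhb. Here bckdha fell from 100.3 ± 16.7 CPM in WT to 57.8 ± 10.3 CPM in hUHRF1 (L2FC -0.80 ± 0.17, adjusted p = 0.0038). With library size alone its L2FC was -0.025. For bckdhb the pools overlapped (10.6 to 19.8 CPM in hUHRF1 against 14.5 to 26.4 CPM in WT, L2FC -0.63 ± 0.21, adjusted p = 0.033), the call held in 4 of the 11 fits that left out 1 pool and the L2FC became 0.18 with library size alone.

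On the leucine branch isovaleryl-CoA dehydrogenase, ivd, had the smallest adjusted p-value of the branched-chain genes. It was measured at 117, 76.6, 150.2, 186 and 155 CPM in the hUHRF1 pools and between 309 and 432 with a median of 385 CPM in the WT pools. The conditions were fully apart (2.73-fold lower, L2FC -1.45 ± 0.23, adjusted p = 0.00041). The next enzyme, methylcrotonyl-CoA carboxylase, has the subunits mccc1, which fell from 42.8 ± 9.998 CPM in WT to 25.2 ± 4.84 CPM in hUHRF1 (L2FC -0.77 ± 0.20, adjusted p = 0.011) but not with library size alone (L2FC 0.017), and mccc2, which was not called (135 to 224 CPM in hUHRF1 against 205 to 349 CPM in WT, L2FC -0.53 ± 0.21, adjusted p = 0.070) and passed with clutch as a block (adjusted p = 0.0073). On the valine branch the hydrolase hibch (24.4 to 52.8 CPM in hUHRF1 against 43.4 to 87.4 CPM in WT, L2FC -0.73 ± 0.25, adjusted p = 0.041) was called in 5 of the 11 fits that left out 1 pool, with an L2FC of 0.040 with library size alone. The dehydrogenase that follows has 2 genes. For hibadha the hUHRF1 pools held 5.24, 7.01, 4.43, 5.68 and 4.72 CPM and the WT pools lay between 6.05 and 16.6 with a median of 11.6 CPM (L2FC -1.10 ± 0.25, adjusted p = 0.0053), with only the hUHRF1 pool of clutch 6 inside the WT range. For hibadhb the hUHRF1 pools held 22.3, 26.0, 24.1, 36.2 and 33.2 CPM and the WT pools lay between 21.6 and 42.2 with a median of 31.9 CPM (L2FC -0.16 ± 0.19, adjusted p = 0.56), so that this copy was not called.

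All 4 genes of lysine breakdown were lower, each with every hUHRF1 pool below every WT pool. The bifunctional enzyme aass, which carries out the first 2 steps of the saccharopine pathway, was measured at 59.06, 34.4, 43.4, 46.4 and 44.7 CPM in the hUHRF1 pools and between 108 and 143 with a median of 133 CPM in the WT pools. The pools of clutch 4 were the highest of the hUHRF1 pools and the lowest of the WT pools, and they too were far apart (2.85-fold lower, L2FC -1.51 ± 0.17, adjusted p = 4.1e-05). The dehydrogenase aldh7a1, which removes aminoadipate semialdehyde, fell from 586 ± 143 CPM in WT to 325 ± 31.2 CPM in hUHRF1 (L2FC -0.85 ± 0.19, adjusted p = 0.0048). Both IDs of glutaryl-CoA dehydrogenase, GCDH, were lower as well, ENSDARG00000037057 2.80-fold (106 to 223 CPM in hUHRF1 against 372 to 592 CPM in WT, L2FC -1.48 ± 0.21, adjusted p = 0.00022) and ENSDARG00000098831 2.49-fold (60.0 to 115 CPM in hUHRF1 against 128 to 254 CPM in WT, L2FC -1.32 ± 0.23, adjusted p = 0.00090).

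Of the 6 listed genes of the urea cycle and arginine, 3 were hardly detected in these larval livers. Carbamoyl phosphate synthetase cps1, which opens the cycle in mammals, had at most 2 counts in any pool of either condition, and ornithine transcarbamylase, otc, at most 9 in hUHRF1 and 5 in WT. Arginase arg1, the liver enzyme of mammals, had at most 17 counts in an hUHRF1 pool and 1 in a WT pool. These 3 genes were not tested, and at this depth a difference between conditions was not detectable for cps1 and otc. Argininosuccinate synthase, ass1, was low as well (0.334 to 3.92 CPM in hUHRF1 against 0.263 to 2.79 CPM in WT) and was not called (L2FC 0.71 ± 0.64, adjusted p = 0.43).

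The other genes of arginine metabolism, asl and arg2, moved in opposite directions. Argininosuccinate lyase, asl, which releases arginine and fumarate, was measured at 9.54, 9.47, 10.0, 10.6 and 6.83 CPM in the hUHRF1 pools and between 1.66 and 4.14 with a median of 2.52 CPM in the WT pools. All hUHRF1 pools were above all WT pools, which held for 8.05% of all genes, and the hUHRF1 pool of clutch 9 was the lowest of its condition (3.57-fold higher, L2FC 1.84 ± 0.26, adjusted p = 0.00019). The call held in all 11 fits that left out 1 pool. Counts of asl were low, at 17 to 68 in a WT pool and 81 to 312 in an hUHRF1 pool. The mitochondrial arginase arg2 fell from 124 ± 53.2 CPM in WT to 49.7 ± 28.9 CPM in hUHRF1 (L2FC -1.31 ± 0.39, adjusted p = 0.020). Its hUHRF1 pools ranged widely, with that of clutch 4 (96.9 CPM) inside the WT range, and without the hUHRF1 pool of clutch 9 it no longer passed (adjusted p = 0.050018).

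Cysteine is oxidised by cdo1 and then decarboxylated by csad on the way to taurine, which mammals use to conjugate bile acids. These consecutive enzymes moved in opposite directions. In the hUHRF1 pools cdo1 stood at 37.7, 30.0, 35.9, 33.6 and 35.6 CPM, a narrow range, and in the WT pools it lay between 76.6 and 164 with a median of 120.2 CPM, a decrease of 3.49-fold without overlap (L2FC -1.80 ± 0.20, adjusted p = 4.1e-05). For csad the hUHRF1 pools held 62.2, 82.8, 118, 139 and 119.6 CPM and the WT pools lay between 9.73 and 91.2 with a median of 38.9 CPM, an increase of 2.47-fold (L2FC 1.31 ± 0.45, adjusted p = 0.043). The csad ranges overlapped and the WT pools themselves spread widely, with those of clutches 4 and 5 the lowest and that of clutch 7 the highest, although csad was higher in hUHRF1 in all 5 clutches. With clutch as a block its adjusted p was 0.0023, but only 3 of the 11 fits that left out 1 pool called it, with values up to 0.093 in the others.

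**Figure D2:**
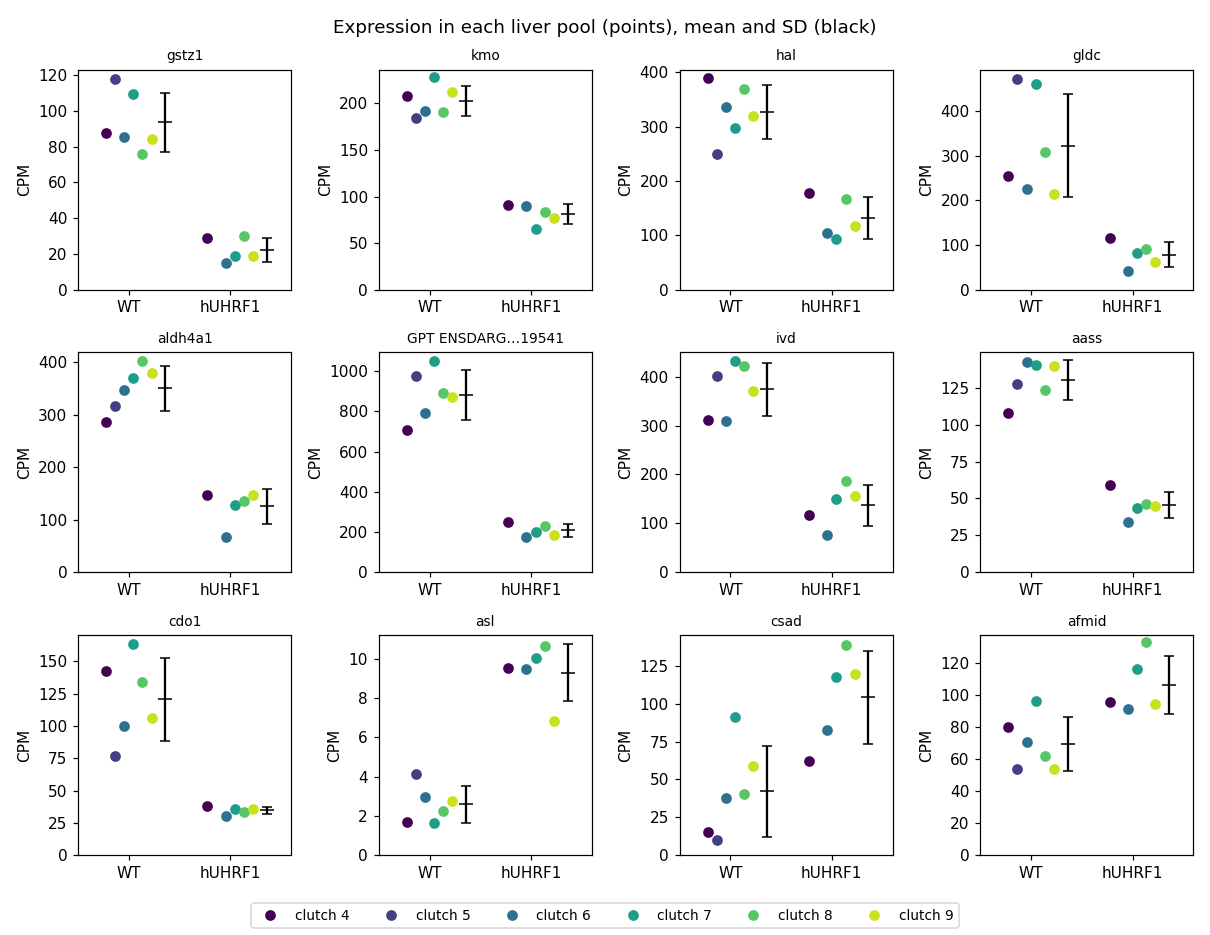
CPM (y axis, linear from 0) in each WT and hUHRF1 pool, coloured by clutch, with the mean and SD in black, for the gene of smallest adjusted p-value in each amino acid group and the 3 genes called higher. In the first 9 panels and in that of asl the conditions do not overlap, while csad and afmid overlap.

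Where a step is catalysed by a pair of related genes, the ratio of their counts within a pool shows whether they changed alike, and it does not depend on the scaling between libraries. Ratios are not corrected for gene length, so only their difference between conditions is read. Of 12 pairs listed, 10 had both genes tested, and each was compared with a two-sided exact permutation test over all 462 splits of the pools into 5 and 6, whose smallest possible p is 0.0043, with Benjamini-Hochberg adjustment over the 10 pairs. Of these, 5 pairs differed, in each case with the larger decrease, or the only one, in the first gene, and in each the ratio was lower in hUHRF1 in all 5 clutches. The ratio of prodha to prodhb, which did not pass, was also lower in all 5 clutches. The pairs were chosen with earlier results of these data known. The splits also ignored the clutch that pools share, so the p-values are to be read with care.

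The largest shift was between the alanine aminotransferases. The ratio of GPT ENSDARG00000019541 to gpt2 was 39.9, 17.7, 24.4, 39.5 and 25.7 in the hUHRF1 pools of clutches 4, 6, 7, 8 and 9 and between 91.2 and 525 with a median of 184 in WT. Counts of gpt2 were low, at 20 to 123 in a WT pool, and the ratio of 525 came from the WT pool with 20. The ratio was lower in every hUHRF1 pool than in any WT pool (difference -2.75 ± 0.43 (SE) on the log2 scale, exact permutation p = 0.0043, adjusted p = 0.022). The same complete separation was seen for AGXT ENSDARG00000018478 over ENSDARG00000052099, at 5.74, 5.69, 5.31, 6.46 and 5.86 in hUHRF1 and between 6.84 and 10.7 with a median of 8.09 in WT (difference -0.50 ± 0.10 (SE) on the log2 scale, exact permutation p = 0.0043, adjusted p = 0.022). Both of these pairs passed in all 11 tests that left out 1 pool.

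The other differing pairs were less stable. The ratio of cytosolic bcat1 to mitochondrial bcat2 was 2.40, 1.62, 3.99, 3.77 and 2.54 in hUHRF1 and between 3.63 and 6.47 with a median of 5.15 in WT (difference -0.92 ± 0.25 (SE) on the log2 scale, exact permutation p = 0.013, adjusted p = 0.032). That of hibadha to hibadhb was 0.236, 0.270, 0.185, 0.158 and 0.143 in hUHRF1 and between 0.205 and 0.484 with a median of 0.379 in WT (difference -0.88 ± 0.26 (SE) on the log2 scale, exact permutation p = 0.013, adjusted p = 0.032). For got2a over got2b the ratios were 1.54, 1.02, 1.91, 2.76 and 2.43 in hUHRF1 and between 2.04 and 5.27 with a median of 3.52 in WT (difference -0.93 ± 0.32 (SE) on the log2 scale, exact permutation p = 0.022, adjusted p = 0.043). All of these overlapped between conditions and lost the call in 9 of the 11 tests that left out 1 pool, with adjusted p-values of up to 0.095. No difference passed for tdo2a over tdo2b (-0.27 ± 0.25 on the log2 scale, SE), prodha over prodhb (-0.85 ± 0.73), glud1a over glud1b (0.24 ± 0.18), the GLS2 IDs (-0.14 ± 0.28) or the GCDH IDs (-0.20 ± 0.15). The errors leave room for changes of a size similar to those called, most of all in the prodh pair. Pairs that were not called are therefore not shown to have changed alike.

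**Figure D3:**
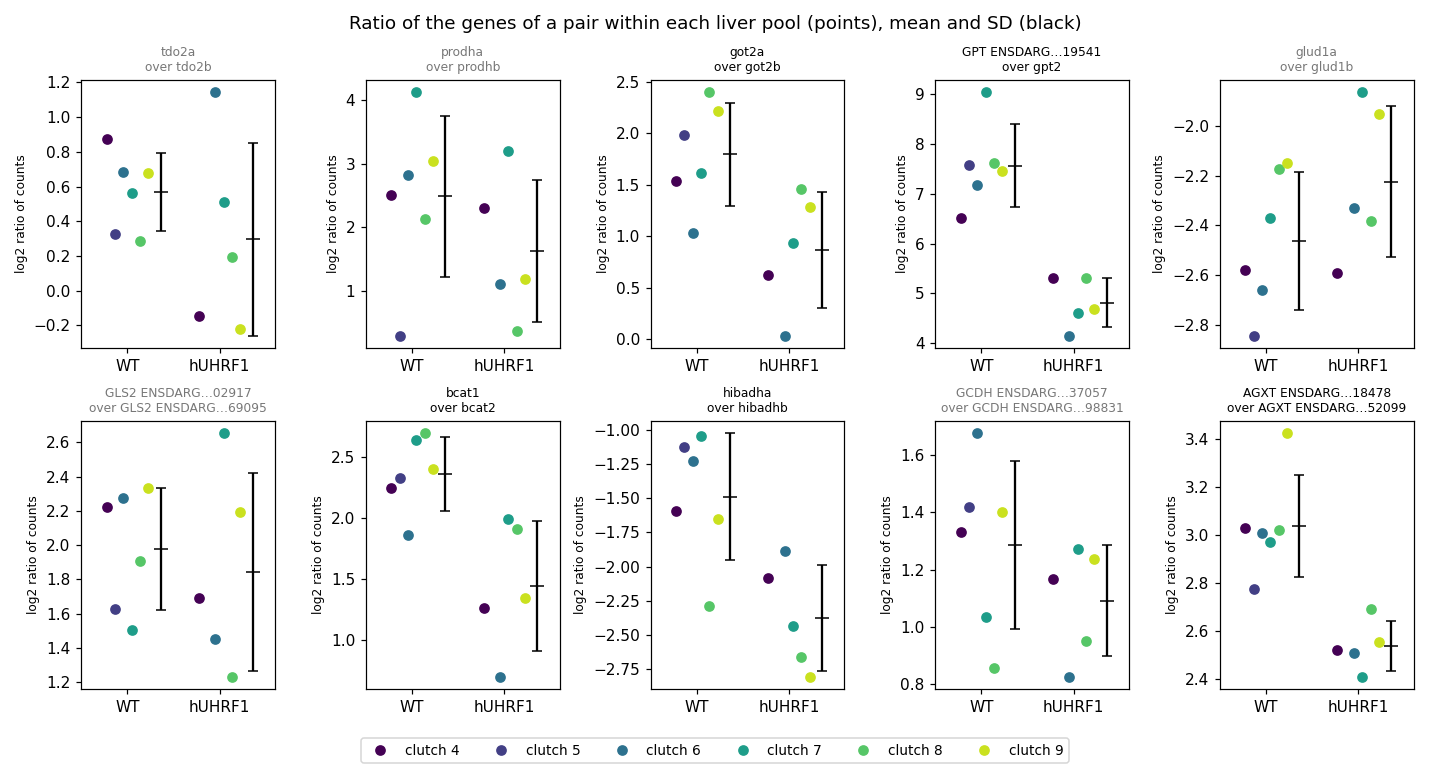
Log2 ratio of the counts of the genes of each tested pair (y axis) within each WT and hUHRF1 pool, coloured by clutch, with the mean and SD in black; pairs that differed between conditions have black titles and the others grey. GPT ENSDARG00000019541 over gpt2 and the AGXT pair are the panels in which no pools of the conditions overlap.

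Decreases were found among cytosolic and mitochondrial enzymes. By the usual location of each enzyme in mammals, 18 of 26 tested cytosolic genes were lower (69.2%) and 3 higher (11.5%), with a median L2FC of -1.12. Of 26 mitochondrial genes 17 were lower (65.4%) and none higher, with a median of -0.85. Over all tested genes 14.6% were lower and 14.5% higher, so the share of higher cytosolic genes was not above the background. The 4 genes of other or several locations (kmo, aldh7a1 and both AGXT IDs) were all lower. The difference between compartments was not tested.

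Most decreases were seen in every clutch. Of the 56 tested genes 46 were lower in hUHRF1 in all 5 clutches with both conditions, against 20.9% of all tested genes. The hUHRF1 pool of clutch 6, which held 27 livers and had the lowest summed hepatocyte markers, was the lowest hUHRF1 pool for 36 of the 56 genes and 28 of the 39 called lower, and without it 38 were called lower. Over all genes, 1949 of 15934 were called lower without this pool. It also had the largest TMM factor of all pools (1.705). The median over members of the log2 CPM difference from the WT mean was -1.28 in this pool and -1.28 in the hUHRF1 pool of clutch 7. The hUHRF1 pools of clutches 7 and 9 had the highest summed exocrine pancreas markers, and without both 33 genes were called lower, with a median L2FC of -1.04, and 1 higher, asl. Over all genes that fit called 1949 of 16397 lower. Sample titles of clutches 4, 5 and 6 have another wording than those of clutches 7, 8 and 9, which may mark batches. The median L2FC of the members was -1.05 in clutches 4 to 6 alone and -1.05 in clutches 7 to 9 alone, with 23 and 37 called lower. Over all genes, these fits called 976 of 17102 and 1348 of 15467 lower. A test of the difference between these groups of clutches (edgeR, interaction with condition) called 0 of the 56 genes, also at an unadjusted p under 0.05. Over all genes it called 0 as well, so the lack of calls among the members does not show that the groups agree.

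**Figure D4:**
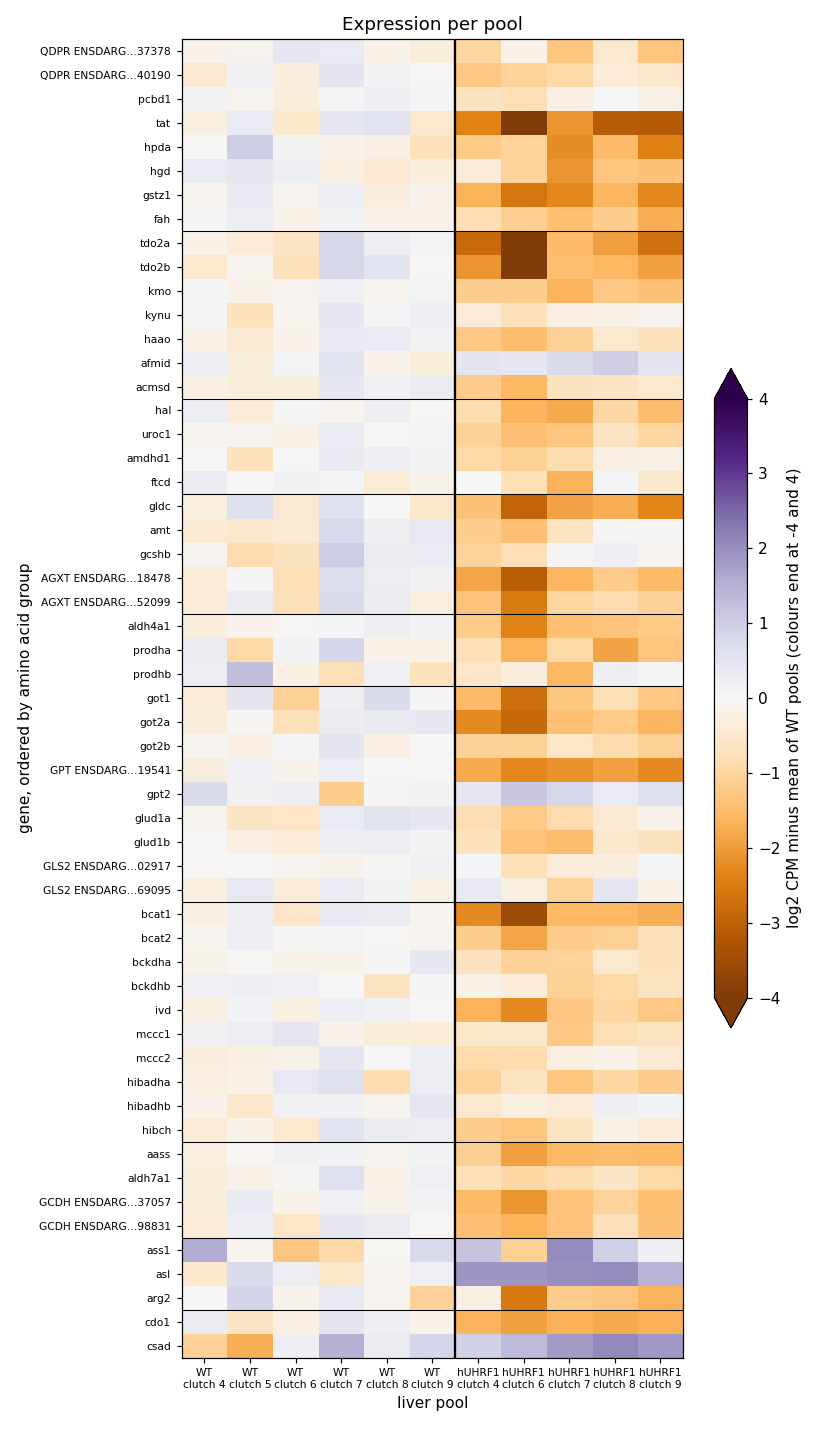
Log2 CPM minus the mean of the WT pools (colour, orange lower and purple higher, ending at -4 and 4) for 55 tested genes (rows, in the order of the amino acid groups) in each pool (columns). The 5 hUHRF1 columns are orange for most rows, and the rows of asl, csad and afmid are purple. In most rows the hUHRF1 column of clutch 6 is the lowest.

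Other genes of amino acid metabolism were compared as a wider list. Of 52 names 49 were matched, to 56 IDs, of which 49 were tested. Of these 22 were lower (44.9%, against 14.6% of all genes) and 6 higher (12.2%, against 14.5% of all genes, so close to the background), with a median L2FC of -0.60. The smallest adjusted p-values among the lower genes were those of auh, which acts on leucine breakdown after the mccc enzyme (from 59.4 ± 7.61 CPM in WT to 21.0 ± 3.58 CPM in hUHRF1, L2FC -1.50 ± 0.17, adjusted p = 3.7e-05), dhtkd1, a dehydrogenase of lysine and tryptophan breakdown (from 314 ± 47.2 CPM in WT to 118 ± 19.5 CPM in hUHRF1, L2FC -1.41 ± 0.18, adjusted p = 8.7e-05), and mcee, an epimerase of the propionate pathway (from 23.3 ± 4.02 CPM in WT to 10.6 ± 1.47 CPM in hUHRF1, L2FC -1.14 ± 0.16, adjusted p = 0.00024). Among the higher genes they were those of the following IDs. GLUL ENSDARG00000100003, a glutamine synthetase, which fixes ammonia on glutamate, rose from 17.5 ± 2.93 CPM in WT to 40.7 ± 7.87 CPM in hUHRF1 (L2FC 1.22 ± 0.17, adjusted p = 0.00023), while GLUL ENSDARG00000099776 fell (L2FC -1.61 ± 0.46, adjusted p = 0.017). KYAT3 ENSDARG00000100818, a kynurenine aminotransferase, had at most 18 counts in a WT pool and between 63 and 241 in the hUHRF1 pools (L2FC 4.60 ± 0.77, adjusted p = 0.00068). The other tested copy of this name, KYAT3 ENSDARG00000101791, stood at 10.1 ± 6.12 CPM in WT and 5.51 ± 4.20 CPM in hUHRF1 and was not called (L2FC -0.87 ± 0.52, adjusted p = 0.23), although it was lower in all 5 clutches. SLC25A15 ENSDARG00000062271, a mitochondrial ornithine carrier, rose from 4.72 ± 1.65 CPM in WT to 13.9 ± 3.89 CPM in hUHRF1 (L2FC 1.55 ± 0.26, adjusted p = 0.00070). The other copy of this name, SLC25A15 ENSDARG00000063539, was higher too (2.51 ± 0.692 CPM in WT and 5.47 ± 1.70 CPM in hUHRF1, L2FC 1.12 ± 0.27, adjusted p = 0.0077).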

How the data were processed

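RNA-seq was measured in 11 pools of dissected larval livers, 5 hUHRF1 and 6 WT. The authors removed ribosomal RNA, aligned the reads to GRCz10 with HISAT2 and obtained gene counts from HTSeq. The counts were deposited as such, with no normalization, for 32105 Ensembl gene IDs. Whether strand was used in counting is not given in the sources used here. Samples were grouped by the condition in their labels. The labels count 5 clutches from carriers crossed together, whereas the methods describe a cross to WT fish and name a second sequencer. Each pool is a separate sample of a clutch, and p-values measure the spread between these pools.

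The main test was that of edgeR 4.0.16 in R 4.3.3 (quasi-likelihood test, TMM, filterByExpr with a minimum count of 10 and a minimum total of 15, condition as the only term). CPM values are on the TMM scale. Ratios of gene pairs were taken with 0.5 added to each count and tested in Python with exact permutation. The members, the gene lists and the pairs were chosen with earlier results of these data known. Gene names were known for 26269 IDs. The names tdo2a, hpdb, got2a and hibadhb were assigned to the IDs left over under the capital name. Values of every pool are given for the gene of smallest adjusted p-value in each amino acid group, the genes called higher and both genes of each pair that differed, and for tat, chosen after its values were seen. Of the members 1 gene is not reported here, although the counts, medians and sums over members include it. Other genes are given by mean or range, and of the wider list the 3 of smallest adjusted p-value in each direction. Of this list 1 further ID each of GLUL, KYAT3 and SLC25A15 is given, all chosen after their values were seen.

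Pools of the same clutch deviated together from the means of their conditions (correlation over genes 0.206 to 0.481 in the 5 clutches with both conditions), and the labels give the clutch, so the clutch numbers pair the pools. The fit with clutch as a replicate block is an alternative. Others were DESeq2 1.42.0 and its size factors, library size only, no filter, a minimum of 10 counts per library, clutches grouped as 4 to 6 and 7 to 9, with the group as a term or alone, each pool left out in turn and, for ratios, 0.1 or 1 added and permutation within groups of clutches. The fit without the hUHRF1 pools of clutches 7 and 9 was added after the data were seen. In data simulated for hUHRF1 against WT with 200 genes changed by 2 on the log2 scale, 132 of the 174 that passed the filter were called (75.9%), and 2.94% of calls were unchanged genes, over 15601 genes tested. The simulation had no clutch effect and changed few genes, whereas 29.1% of genes were called in the data. The median L2FC of the members was -1.03, so these shares need not hold for them. No sequences were printed, since none were available for these genes here.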

Additional observations from a re-analysis of the deposited data

Results flagged for a closer look

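In 6 of 110 groups of values (each tested gene reported here in each condition), 1 pool stood apart from the rest of its condition by more than a gap test at the 95% level allows, where chance gives about 1 in 20. The hUHRF1 pool of clutch 6 was the lowest for tdo2b (49.6 CPM, the other hUHRF1 pools between 287 and 449) and aldh4a1 (67.8 CPM, the others 128 to 147.9). The hUHRF1 pool of clutch 9 was the lowest for asl (6.83 CPM, the others 9.47 to 10.6). Among WT pools, amdhd1 was lowest in clutch 5 (95.2 CPM, the others 156 to 199), bckdhb was lowest in clutch 8 (14.5 CPM, the others 22.8 to 26.4) and bckdha was highest in clutch 9 (132.7 CPM, the others 88.2 to 102).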

How the results depend on the processing

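The number of genes called lower was 39 and lay between 36 and 39 when 1 pool was left out, at 46 with clutch as a replicate block, 42 with DESeq2 and 37 in clutches 7 to 9 alone, but at 23 in clutches 4 to 6 alone and 20 with library size only. The number called higher was 3, between 1 and 3 with 1 pool left out, 8 with library size only, 1 in clutches 4 to 6 alone and 1 without the hUHRF1 pools of clutches 7 and 9. The median L2FC of -1.03 lay between -1.14 and -0.95 with 1 pool left out and was -0.26 with library size only, which also turned the L2FC of 15 members from negative to positive, 7 of them called in neither fit (kynu, gcshb, ftcd, prodhb, mccc2, amt and glud1a, 0.054 to 0.42) and the others pcbd1 (0.40), amdhd1 (0.11), GLS2 ENSDARG00000002917 (0.53), GLS2 ENSDARG00000069095 (0.73), bckdhb (0.18), mccc1 (0.017), hibadhb (0.60) and hibch (0.040). Of these, pcbd1, both GLS2 IDs and hibadhb were called higher with library size only, as was gpt2, which had a positive L2FC in both fits. This scaling called 52.1% of all genes higher. Other members kept a negative L2FC but lost the call with library size only. Among them were bckdha (-0.025), QDPR ENSDARG00000040190 (-0.037), aldh7a1 (-0.060), acmsd (-0.12) and glud1b (-0.13). Over all genes, 4612 were called, 8860 with library size only, 1784 in clutches 4 to 6 alone and 2541 in clutches 7 to 9 alone, fits that hold fewer pools. Lower among these were 2313, 609, 976 and 1348, in the same order. With clutch as a block 2836 of 15603 genes were called lower, and with DESeq2 2740 of 28134. With 1 pool left out between 1949 and 2266 genes were called lower, with 15523 to 16186 tested. Of the 42 called genes 36 were called in every fit with 1 pool left out and all 42 with clutch as a block. The block also called 7 genes that the main fit did not call. These were QDPR ENSDARG00000037378, pcbd1, kynu, amt, gcshb, glud1a and mccc2. Pairs that differed numbered 5, between 2 and 5 with 1 pool left out, and 5 within groups of clutches. With sign flips within the 5 clutches the smallest p is 0.0625, so no pair could pass. Too few counts were found for cps1, otc, arg1, hpdb and single copies of GPT and QDPR, which were not tested. Whether this reflects depth or absent expression was not tested. Low counts also limit ass1, prodhb, gpt2, QDPR ENSDARG00000037378 and, in WT, asl.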
